A study of Mus musculus with 12 samples.

Results

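Nf2 knockout (Nf2-KO) mouse gastric cancer tumorspheres were compared with control tumorspheres by RNA sequencing. The comparison takes the 3 libraries labelled with the Nf2 KO genotype and the 3 labelled Control, 6 of the 12 samples of the series, and covers all 18926 genes that the count tables list. All samples came from S1, a gastric cancer line taken from a ChetPS mouse, whose stomach tumours arise from engineered changes in Cdh1, Trp53 and Smad4, so controls and Nf2-KO cells both carry these. Both also express Cas9 from a PiggyBac transposon. Nf2-KO cells received an sgRNA against Nf2 by lentivirus and were kept as a drug-selected pool rather than as 1 clone, whereas controls received a non-targeting sgRNA or the unchanged vector. Which sgRNA the sequenced cells carried is not given in the sources used here. Tumorspheres are floating colonies that grow in serum-free medium with epidermal growth factor on plates to which cells cannot attach. The labels call the material a monolayer cell, while the title and methods of the study speak of tumorspheres, and the tables do not settle which it was. The replicates are described as technical, so every p-value here measures only the spread between these libraries.

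Nf2 encodes merlin, a protein of the ezrin, radixin and moesin kind that sits beneath the plasma membrane at cell contacts. Merlin brings the kinases LATS1 and LATS2 of the Hippo pathway to the membrane, where they are switched on. Active LATS phosphorylates the coactivators YAP and TAZ, which keeps them out of the nucleus and away from the TEAD transcription factors that carry them to DNA. In the stomach and gut, YAP and TAZ are known for their part in regeneration, and genes such as Ccn1, Ccn2, Ankrd1 and Amotl2 serve as common readouts of their activity.

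The 3 control libraries held 95340850, 69091487 and 43818139 counts, and the Nf2-KO libraries between 84440583 and 87751112. Principal components of log2 CPM (counts scaled to a common library size) placed the 3 Nf2-KO libraries together and apart from the controls along the first component, which held 61.7% of the variance. One control carries no replicate number, and it stood apart from controls 1 and 2 along the second component, with 28.8%. The distance between controls 1 and 2 was 80.1 on the log2 CPM scale, against 126 and 168 between each of them and the unnumbered control, and 50.2 to 54.2 within Nf2-KO. The highest of the 3 controls exceeded the lowest by more than 2-fold for 6512 genes, and by that much for 1684 genes within Nf2-KO. Where leaving out the unnumbered control moved a list's count printed below by over 1.5 times, the count without it is given as well.

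**Figure D1:**
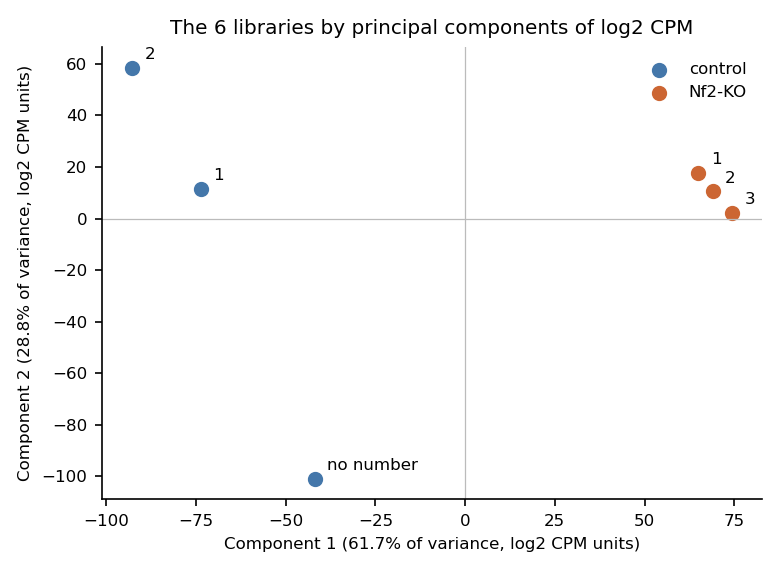
Principal components of log2 CPM over the 6 libraries, with the first component on the x axis and the second on the y axis, both in log2 CPM units. The 3 Nf2-KO libraries lie together on the right, and the control without a replicate number lies below the other 2 controls.

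Nf2 itself fell. It was at 58.1, 61 and 55.4 CPM in the controls and at 14.3, 13.2 and 13.2 CPM in Nf2-KO, so the groups were well apart, with a log2 fold change of -2.10 (SE 0.09, adjusted p = 2.5e-08). These and all later trios of values stand in the order unnumbered control, control 1, control 2, and Nf2-KO 1, 2 and 3. Reads on Nf2 were thus 4.28-fold lower and not absent, and the tables hold counts per gene, which do not show the edited sequence. The gene lies at chr11:4757639-4849544 in GRCm38.p6. Of its neighbours, Zmat5 on one side and Nipsnap1 on the other were also lower, by 0.52 and 1.00 on the log2 scale, while Uqcr10 (0.11), Ascc2 (-0.07), Thoc5 (0.03) and the transcribed pseudogene AA413626 (-0.33) did not pass the test. Rasa1, the Ras-restraining gene that the study knocked out in its other lines, was at 60.5, 74.9 and 78.5 CPM in controls and 97.2, 101 and 97.2 CPM in Nf2-KO (log2 fold change 0.47, adjusted p = 0.011), and this call was lost in the fit to these 2 groups alone (adjusted p = 0.058).

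Genes differed between Nf2-KO and control in both directions. Of 18053 genes tested, 3710 were higher and 4011 lower in Nf2-KO at an adjusted p under 0.05, that is 20.6% and 22.2% of all genes tested, which is the background for every count below. Some genes given below as not called were called without the unnumbered control. Among them were Tead1, Axin2, Egr1, Lats1, Ezr, Fgfr1, Hif1a, Ctnna1, F11r, Zbp1, Ptprc, Krt8, Krt18 and Krt19. The Nf2 neighbours Ascc2 and Uqcr10 were also called without it. Fold changes reached at least 2-fold for 1531 of the higher and 2265 of the lower genes, and at least 8-fold for 126 and 236. The median log2 fold change over all genes was -0.07. The 3 Nf2-KO values all lay above the 3 controls for 24.4% of genes and all below them for 22.4%. Genes named in the following paragraphs were chosen by a fixed rule on size and list, and those among them that the rule did not choose, such as Ankrd1, Lats2, Crim1, Pgk1, Hnf4a and C3, were chosen after their values were seen, to fill in the roles of each list. Leaving out the unnumbered control raised the counts to 5566 higher and 5631 lower, and 3638 of the 3710 and 3811 of the 4011 stayed called. Fitting only these 2 groups gave 2328 higher genes, 2319 of which were among the 3710.

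**Figure D2:**
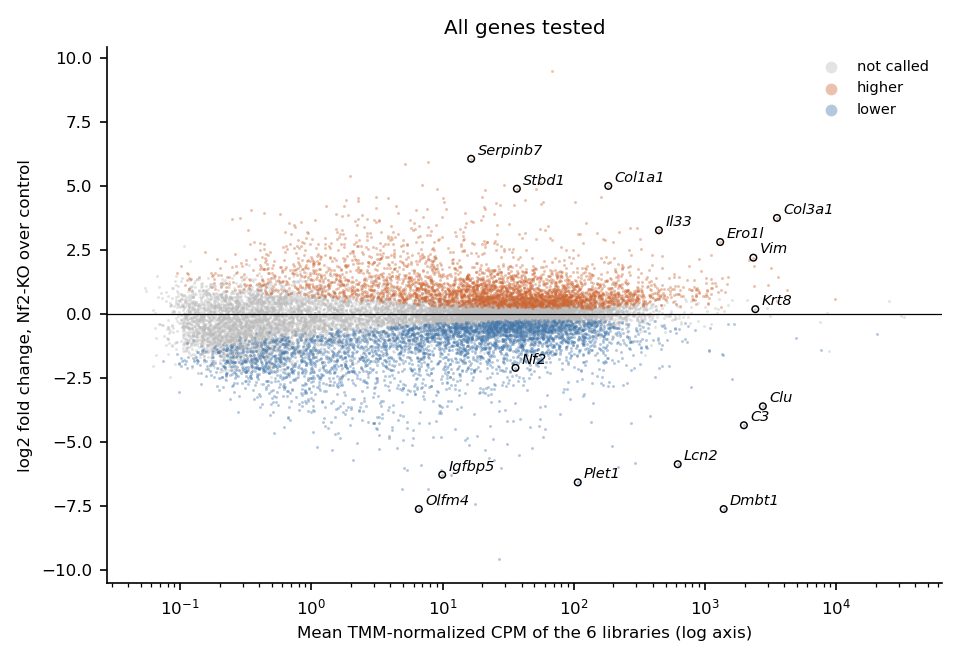
Log2 fold change of Nf2-KO over control (y axis) against the mean CPM of the 6 libraries (x axis, log scale) for the 18053 genes tested, coloured by call. Abundant genes such as Dmbt1, Lcn2, C3 and Clu lie far below 0, Col3a1, Vim and Ero1l far above it, and the keratin gene Krt8 lies near 0.

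Several of the genes with the largest rise were close to silent in controls. Serpinb7, a serine protease inhibitor, was at 0.287, 0.545 and 0.675 CPM in controls and at 29.9, 33.7 and 33.8 CPM in Nf2-KO (log2 fold change 6.06, SE 0.26). Il1rl1, the receptor for interleukin 33, went from 1.42, 3.99 and 3.71 to 104, 109 and 111 CPM (5.17, SE 0.36). Its ligand Il33, an alarmin cytokine, rose as well, from 69.7, 97.2 and 83.6 to 766, 823 and 833 CPM (3.27, SE 0.20), so that ligand and receptor were both higher in all 3 Nf2-KO libraries. Also among the 12 largest rises of genes with more than 3 counts in each of the 6 libraries were Gng2, a G protein subunit (5.93), Stbd1, which binds glycogen (4.89), Apln, the ligand of the apelin receptor (4.58), Rcn3, a calcium-binding protein of the endoplasmic reticulum (4.86; 5.53 without control 1), and Adgrf5 and Prune2 (4.89 and 4.87). Rgcc (5.03) and Bhlhb9 (4.57) came from at most 0.774 CPM in any control and moved to 5.65 and 5.62 when control 2 was left out. On log2 FPKM (fragments scaled by transcript length and library size) with a pseudocount of 0.1, Adgrf5 was 3.76, Bhlhb9 3.66 and Gng2 4.54. Stbd1, Apln, Rcn3, Prune2 and Rgcc were 4.77, 4.37, 4.93, 4.55 and 4.85 on that scale.

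Genes of mucus, defence and plasma proteins were among the largest falls. Dmbt1, a secreted scavenger receptor of mucosal surfaces, dropped from 826, 3998 and 3454 CPM to 15.7, 13.4 and 13.4 CPM (-7.61, SE 0.64). Olfm4, a marker of gut progenitor cells, went from 9.74, 12.7 and 17 CPM to 0.0941, 0.0456 and 0.058 CPM (-7.61, SE 0.48), and Fcgbp, a mucus protein, from 25.7, 41.8 and 38.5 to 0.118, 0.205 and 0.302 CPM. Olfm4 was near the floor in Nf2-KO, so its fold depends on the prior count, and it was -5.26 on log2 FPKM with a pseudocount of 0.1. The surface protein gene Plet1 fell from 177, 251 and 208 to 1.82, 2.01 and 2.87 CPM. Fibrinogen chains Fgb (-6.01) and Fga (-6.00; -6.71 without Nf2-KO 2), the vitamin D carrier Gc (-5.97) and angiotensinogen Agt (-6.30), all better known as liver products, were 64.6-, 64.2-, 62.9- and 79.1-fold lower in that order. The rule that named the largest falls required groups without overlap. On log2 FPKM with a pseudocount of 0.1, Fga was -4.38, against -5.82 for Fgb, -5.97 for Gc and -5.67 for Agt. Ms4a8a, Fam167a, Igfbp5, Ceacam10, Cd177 and Tmc5 had falls between -5.69 and -6.82, and of these Cd177 moved from -6.07 to -5.39 without the unnumbered control. On the same FPKM scale these 6 were -5.73, -4.75, -4.51, -5.42, -4.98 and -5.40 in that order.

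Levels can be compared between genes only per length, and there the ranks of the most abundant messages changed. In FPKM averaged over 3 libraries, the chaperone gene Clu was the 4th most abundant protein-coding gene of controls (2691 FPKM) and the 233rd of Nf2-KO (213 FPKM), and the iron-scavenging lipocalin Lcn2 moved from 7th (1360 FPKM) to 2728th (22.6 FPKM). In the other direction Vim, the intermediate filament of mesenchymal cells, moved from 91st (434 FPKM) to 11th (1920 FPKM), and the glycolytic genes Aldoa and Pgk1 from 52nd and 97th to 4th and 13th. Spp1, the secreted osteopontin, stayed among the 5 most abundant although it was lower (log2 fold change -0.95), a call that the fit with a replicate block did not keep.

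Genes were then grouped into 43 lists. They are described by how many members passed the test in each direction and by their median, beside the 20.6%, 22.2% and -0.07 of all genes tested. The lists of S phase and mitosis, glycolysis and sterol synthesis leaned to higher members, and those of mucosal defence and mucins to lower ones.

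**Figure D3:**
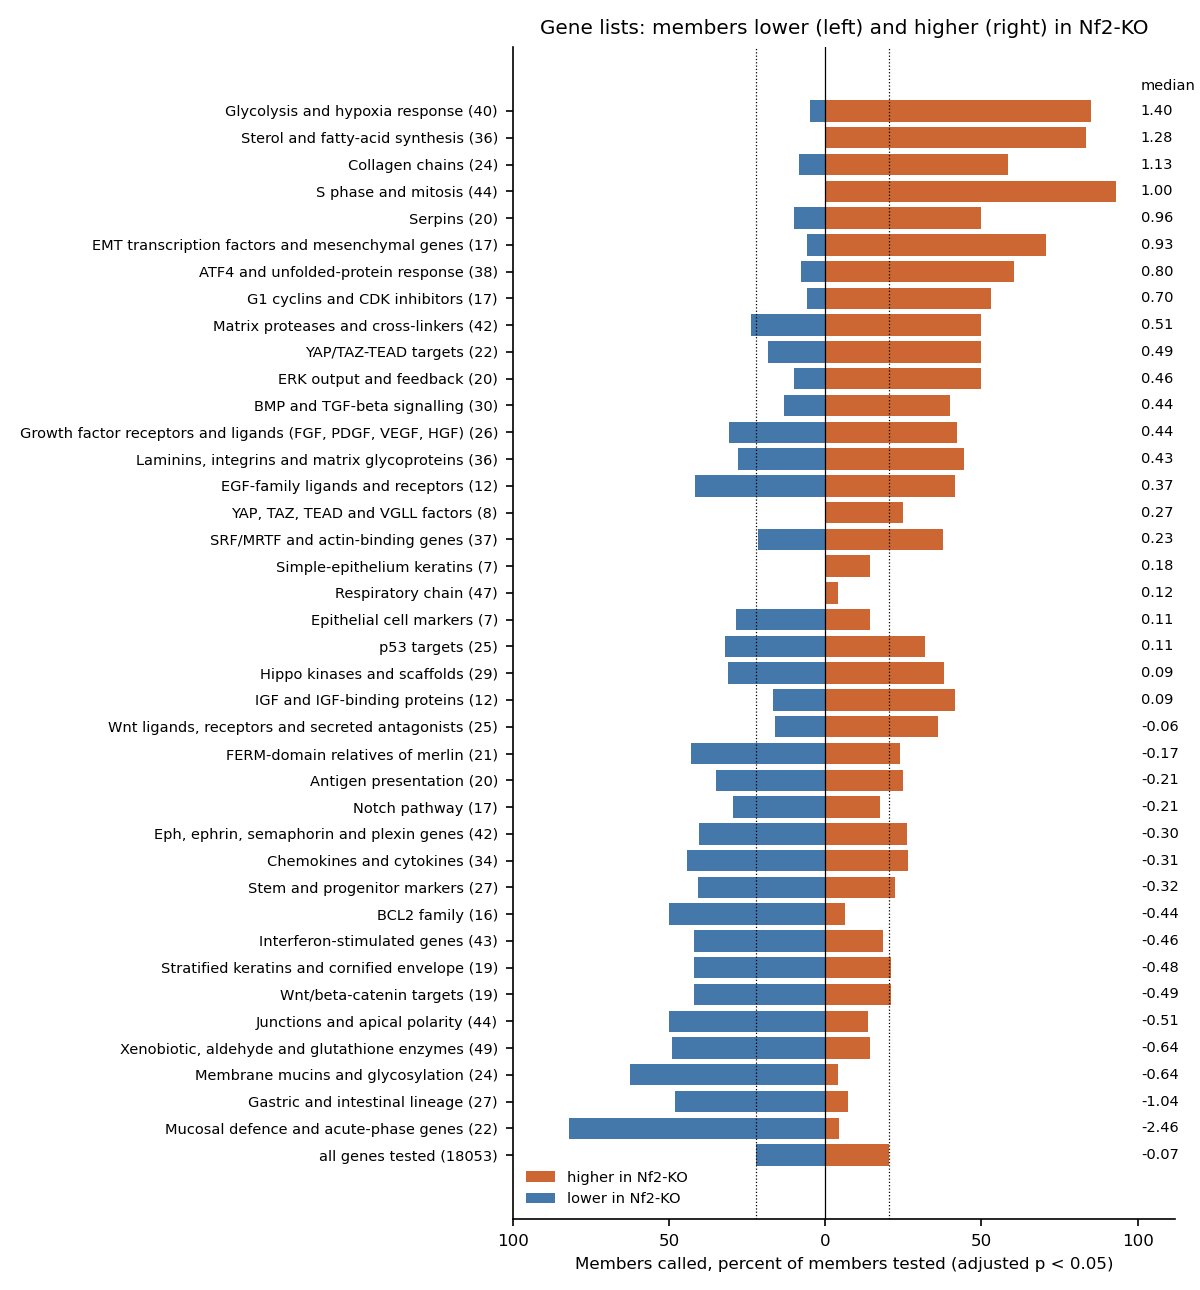
For each list with at least 7 members tested (number in brackets), the percent of members called lower (left, blue) and higher (right, orange) in Nf2-KO, with the median log2 fold change of the list at the right edge. Dotted lines mark the 20.6% and 22.2% of all genes tested; S phase and mitosis has 41 of 44 members higher and mucosal defence 18 of 22 lower.

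In the Hippo pathway, the core kinases had small values and several partners larger ones. Among 29 kinases and scaffolds 11 were higher and 9 lower, with a median log2 fold change of 0.09. Lats2, which many systems show to be induced by YAP as feedback, rose from 27.4, 31.3 and 29.4 to 59.2, 59.2 and 55.3 CPM (0.98, SE 0.09), whereas Lats1 (-0.29) was not called. Stk3 (0.49) and its scaffold Sav1 (0.48) rose slightly, and Stk4 (-0.10), the other upstream kinase, did not pass the test. The angiomotins, scaffolds that bind YAP at junctions, did not all move one way. Amotl2 rose from 29.4, 48.7 and 38.6 to 285, 293 and 298 CPM (2.91, SE 0.20) and Amotl1 from 45.7, 55.9 and 45.4 to 140, 138 and 136 CPM (1.49), while Amot fell (-0.97). Frmd6, a merlin relative that feeds into the same kinases, rose by 1.63, the LIM protein Ajuba, which restrains LATS, by 1.48, and the giant cadherin Fat4 by 1.94.

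Of the coactivators and their DNA-binding partners, 2 of 8 were higher and none lower in edgeR, while 1 was lower at an unadjusted p under 0.05 and in DESeq2. Yap1 was flat, with 99.6, 93.3 and 92.5 CPM in controls and 105, 97.1 and 99.1 CPM in Nf2-KO (0.08, SE 0.08). Wwtr1, which encodes TAZ, stood at 216, 168 and 157 against 241, 251 and 250 CPM (0.46, SE 0.12), and Vgll3, a TEAD cofactor, at 0.393, 1.27 and 3.14 against 5.19, 4.22 and 4.26 CPM (1.54, SE 0.54). Vgll3 moved to 2.45 without control 2. Neither call was kept when edgeR was fitted to only these 2 groups, where none of the 8 was called higher and 1 was higher at an unadjusted p under 0.05. Tead1 varied widely among the controls themselves (21.2, 74.5 and 106 CPM) and overlapped Nf2-KO. Without the unnumbered control Tead1 was lower (-1.51), with 3 of the 8 higher and 2 lower, and leaving out Nf2-KO 1, 2 or 3 or control 1 left 1 higher. In the 21 FERM-domain relatives of merlin, 5 were higher and 9 lower. The talin gene Tln2 (1.88) and Epb41l2 (1.31) rose, the kindlin gene Fermt1 (-1.79), Farp2 (-1.56), Frmd5 (-1.52) and Frmd4b (-1.26) fell, and of the closest relatives ezrin (Ezr, 0.19) was not called, radixin (Rdx, 0.73) was higher and moesin (Msn, -0.93) was lower with overlapping groups, a call lost with only the 2 groups fitted.

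YAP/TAZ-TEAD targets were mixed, with 11 of 22 higher, 4 lower and a median of 0.49, and the largest changes were rises. Ccn1, a matricellular protein and a classical target, went from 16.7, 58 and 54.3 to 388, 392 and 416 CPM (3.21, SE 0.52). Igfbp3 rose from 17.8, 55.1 and 51.5 to 293, 313 and 316 CPM (2.89), Ankrd1 from 96.9, 106 and 91.4 to 298, 321 and 320 CPM (1.67) and F3, the tissue factor that starts clotting, from 55.1, 52.3 and 55.3 to 192, 187 and 188 CPM (1.80). In each of these the 3 Nf2-KO libraries agreed closely and lay above every control. Ccdc80 (3.78) rose from at most 2.08 CPM. Ccn2, the other widely used readout, was at 157, 354 and 360 CPM in controls and 410, 385 and 378 CPM in Nf2-KO, which did not pass the test (0.43, SE 0.30). Fjx1 fell from 77.5, 42.9 and 36.7 to 9.55, 9.79 and 9.52 CPM (-2.45), and Nuak2 (-1.20), Arhgef17 (-0.57) and Crim1 (-0.45) were lower too. Leaving out the unnumbered control gave 11 higher and 7 lower.

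Promoter sequence was read because TEAD factors bind the letters GGAATG, which reads as CATTCC on the other strand. Windows of 100 bases upstream of the start site are printed for the targets Amotl2, Ccn1 and Ankrd1, which rose, for Crim1, a target that fell, and for Ajuba of the Hippo list, picked for its motif, all of which hold these letters, and for F3 and Serpinb7, which hold the AP-1 motif TGANTCA. They are from RefSeq on GRCm38.p6, each 5′ to 3′ on the strand of its gene, with the motifs in capitals.
Amotl2 (chr9:102717692-102717791, plus strand): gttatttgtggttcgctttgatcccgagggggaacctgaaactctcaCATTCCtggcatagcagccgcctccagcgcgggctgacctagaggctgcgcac
Ccn1 (chr3:145650036-145650135, minus strand): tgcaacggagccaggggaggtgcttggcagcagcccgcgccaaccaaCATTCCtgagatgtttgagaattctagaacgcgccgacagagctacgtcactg
Ankrd1 (chr19:36119959-36120058, minus strand): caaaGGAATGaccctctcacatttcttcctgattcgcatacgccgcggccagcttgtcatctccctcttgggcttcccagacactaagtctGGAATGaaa
Ajuba (chr14:54577784-54577883, minus strand): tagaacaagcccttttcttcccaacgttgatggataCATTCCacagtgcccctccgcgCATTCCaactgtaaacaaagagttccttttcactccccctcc
Crim1 (chr17:78200122-78200221, plus strand): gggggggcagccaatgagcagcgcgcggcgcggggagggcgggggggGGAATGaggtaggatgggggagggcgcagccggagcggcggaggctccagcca
F3 (chr3:121723350-121723449, plus strand): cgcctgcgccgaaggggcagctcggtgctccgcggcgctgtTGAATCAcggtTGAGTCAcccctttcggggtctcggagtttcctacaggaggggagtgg
Serpinb7 (chr1:107422589-107422688, plus strand): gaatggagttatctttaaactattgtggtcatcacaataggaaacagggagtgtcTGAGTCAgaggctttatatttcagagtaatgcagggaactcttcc
The motif nearest to the start lay 65 bases before it in Amotl2, 103 in Ccn1 and 45 in Serpinb7. In windows of 250 bases before to 50 after the start, 7 of the 15 targets with a promoter in the table held GGAATG on either strand, or 46.7%, against 15.1% of 12666 tested genes with a promoter. Over all genes the share was 13.9% among the higher and 17.4% among the lower, and it was 17.4% among genes at least 3-fold higher and 19.6% among those at least 3-fold lower. TGANTCA was in 7.11% of all promoters, in 12.3% of those of genes at least 3-fold higher and in 10.5% of those at least 3-fold lower. A match describes letters in a window and does not show binding.

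Ligands of the EGF family moved both ways. Areg, the ligand amphiregulin, rose from 3.57, 4.32 and 3.49 to 21.6, 24 and 25.6 CPM (2.64, SE 0.17), Nrg1 from 12.2, 26.7 and 34.5 to 80.2, 71 and 65 CPM (1.56), and Ereg from 6.06, 19.7 and 18.7 to 33.1, 38.8 and 34.9 CPM (1.27). Nrg4 (-1.85), Egf (-1.11) and Btc (-1.09) fell, so that 5 of 12 members were higher and 5 lower. The receptor Egfr, at 51.6, 121 and 111 CPM against 127, 122 and 116 CPM, was not called, and Erbb2 was lower (-0.82). With only the 2 groups fitted, 3 were higher and 4 lower, and Ereg was among the calls lost. Feedback and output genes of the ERK cascade, which EGF receptors drive, had 10 of 20 higher and 2 lower (median 0.46). Epha2 (1.46), Ier3 (1.27), Ccnd1 (1.16), the phosphatase Dusp5 (1.11) and Fosl1 (2.27), an AP-1 subunit, rose, and Phlda1 fell (-1.72; -1.13 without control 2). Egr1 varied from 6.41 to 98.2 CPM among controls and overlapped Nf2-KO. Without the unnumbered control 6 members rather than 2 were lower.

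Among receptors and ligands of other growth factors, PDGF receptors rose and some FGF receptors fell. Pdgfra was at 0.223, 4.81 and 6.29 CPM in controls and 81.5, 82.7 and 79.6 CPM in Nf2-KO (4.45, SE 0.78), and Pdgfrb at 1.92, 19 and 14.7 against 96.7, 90.4 and 85.6 CPM (2.94, SE 0.59). Both are PDGF receptors typical of fibroblasts and perivascular cells. Fgfr2, the receptor by which epithelium answers mesenchymal FGFs, fell from 253, 169 and 159 to 54, 56.2 and 53.9 CPM (-1.83) and Fgfr3 fell by 2.26, while Fgfr1 (1.43), at 0.892, 10.5 and 13.5 against 26.7, 21 and 18.9 CPM, did not pass the test. Fgfbp1, which frees FGFs from matrix, rose by 3.61. The hormone gene Fgf21 was at 0.127, 0.0272 and 0.119 CPM in controls and 3.29, 4.57 and 3.74 CPM in Nf2-KO, from as few as 2 counts, so its fold depends on the prior count and is not given. Vegfa rose from 314, 292 and 275 to 627, 671 and 658 CPM (1.15). In all, 11 of 26 members were higher and 8 lower. Of the IGF genes, 5 of 12 were higher and 2 lower, with Igfbp5 (-6.27), Pappa (-1.34), Igfbp3 (2.89) and the protease Htra1 (2.62) changing most.

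BMP and TGF-beta genes had 12 of 30 members higher and 4 lower, without the unnumbered control 13 and 8. The activin and BMP antagonists Fst (2.44) and Nog (1.51) and the ligand Bmp4 (1.36) rose. Tgfb3 (-1.86) and Bmp8a (-2.07) fell. Among receptors Tgfbr2 (1.21) rose and Tgfbr1 (-0.82) fell. The S1 line carries an engineered change in Smad4, and Smad4 itself was at 15.6, 21.4 and 30 CPM against 22.2, 21.8 and 21.2 CPM (-0.04).

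Wnt genes went both ways. Of 25 ligands, receptors and antagonists 9 were higher and 4 lower. The ligand Wnt5a rose from 0.149, 1.77 and 2.98 to 15.5, 13.6 and 11.6 CPM (3.09, SE 0.64; 3.83 without control 2), Wnt9a by 2.23 and the receptor Fzd7 by 1.27, while Ror1, a receptor for Wnt5a, fell from 20.6, 27.7 and 32 to 4.67, 4.12 and 3.31 CPM (-2.73) and Wnt4 fell by 2.05. Targets of beta-catenin had 4 of 19 higher and 8 lower (median -0.49). Cd44 fell from 262, 507 and 666 to 203, 168 and 145 CPM (-1.48), and Lgr5, Bambi and Rnf43 by 1.03, 0.98 and 0.68, whereas Axin2, the most general target, was at 14.8, 23.7 and 23 against 16.1, 13.7 and 14.1 CPM and was not called (-0.49, SE 0.19). Aqp5 (3.20), Apcdd1 (1.92), Birc5 (1.20) and Ccnd1 (1.16) were the 4 that rose. The count of lower targets was 4 with only the 2 groups fitted, and 4 or 5 when Nf2-KO 2, Nf2-KO 3, control 1 or control 2 was left out, while without the unnumbered control the lower ligands and receptors were 9 rather than 4. In the Notch pathway, 3 of 17 were higher and 5 lower. The ligand Jag1 fell from 239, 271 and 271 to 106, 99.9 and 92 CPM (-1.39), Notch1 by 0.79, and Jag2 (0.58), Hey2 (1.86) and Notch3 (2.33) rose, the last not with only the 2 groups fitted.

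Guidance genes, which steer cell movement and contact, included class 3 and class 4 semaphorins. Sema3a rose from 4.98, 5.3 and 5.69 to 46.9, 50.6 and 43.6 CPM (3.14, SE 0.11), Slit2 by 2.39 and its receptor Robo2 by 2.22. Sema4g fell from 118, 250 and 265 to 30.5, 21.5 and 18.2 CPM (-3.18), Sema4a by 2.20, and the semaphorin receptors Plxnd1 and Plxnb1 by 1.54 each. Sema3d, of the same class as Sema3a, fell (-2.54). Over 42 members 11 were higher and 17 lower, and with only the 2 groups fitted 7 were higher.

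Epithelial junction genes were mostly lower where they passed the test, with 22 of 44 lower and 6 higher (median -0.51). Cdh1, which encodes E-cadherin, was at 374, 483 and 546 CPM in controls and 123, 109 and 98.3 CPM in Nf2-KO (-2.09, SE 0.17). The S1 line carries an engineered change in Cdh1, and counts per gene do not show which allele the reads came from. Epcam, an adhesion molecule of epithelia, fell from 62.8, 68.1 and 62.1 to 9.97, 10.7 and 10.4 CPM (-2.63) and Tjp3, a tight junction scaffold, from 74.9, 81.3 and 65.1 to 4.18, 4 and 4.82 CPM (-4.09). The connexin Gjb1 (-4.52), the tricellulin relative Marveld3 (-2.67) and the desmosomal cadherin Dsg2 (-2.41) were lower, and so were occludin (Ocln, -1.84) and the polarity genes Patj (-1.58), Llgl2 (-1.57) and Crb3 (-1.43). Ctnna1 (0.18), Tjp1 (0.08), F11r (0.25) and Cxadr (-0.05) did not pass the test, and Cldn6, a claudin of embryonic epithelium, rose from 2.5, 3.24 and 2.54 to 50.5, 50.2 and 55.4 CPM (4.24, SE 0.16). The number of higher members was 10 without the unnumbered control and 3 with only the 2 groups fitted.

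Keratins of simple epithelium mostly did not pass the test. Krt8 was at 3154, 2115 and 1503 CPM in controls and 2476, 2454 and 2801 CPM in Nf2-KO (0.19, SE 0.22), and Krt18 (0.18) and Krt19 (0.11) likewise overlapped, leaving Krt7 (0.98) as the only 1 of 7 called. Without the unnumbered control, where these genes were highest, 4 of 7 were higher. Of 19 genes of stratified epithelium and the cornified envelope, 4 were higher and 8 lower. Involucrin (Ivl, -2.84) fell with the basal keratins Krt14 (-2.16) and Krt15 (-1.61), and Sprr1b (2.65) and Krt13 (1.95) rose from low levels. Sprr2a1 and Sprr2a2 (-2.82 and -2.81) are near-identical copies with almost the same values, and reads on them cannot be told apart.

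The mucosal defence and acute-phase genes were mostly lower, with 18 of 22 lower, 1 higher and a median of -2.46. Lcn2 went from 1466, 1087 and 1096 to 22, 20.3 and 20.6 CPM (-5.86, SE 0.16), haptoglobin (Hp) from 745, 583 and 400 to 10.5, 9.2 and 11.4 CPM (-5.80) and serum amyloid Saa3 from 452, 369 and 324 to 10.6, 10.1 and 11.4 CPM (-5.16). Complement C3, among the most abundant of these messages, dropped from 4503, 3622 and 3185 to 211, 182 and 164 CPM (-4.34), and C4b by 4.50. In each, the lowest control lay far above the highest Nf2-KO library. Pigr, the receptor that carries IgA across epithelium, was at 8.85, 75.4 and 76.9 CPM in controls and at 0.0941, 0.0912 and 0.0232 CPM in Nf2-KO, as few as 2 counts, so no fold is given. Slpi, a protease inhibitor of mucus, was the 1 that rose (0.99), and the uncalled members Tlr2 (-0.24), Zbp1 (-0.46) and Nlrp6 (0.19) had small values.

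Mucins and glycosylation enzymes followed, with 15 of 24 lower and 1 higher. Membrane mucins Muc13 (36.6, 158 and 113 to 9.1, 8.21 and 7.65 CPM) and Muc1 (17.9, 38.6 and 44.8 to 4.7, 3.19 and 3.91 CPM) fell by 3.62 and 3.10, as did the sialyltransferase St6gal1 (-1.83) and the branching enzyme Mgat4a (-2.37). Muc4 was at 0.223, 7.54 and 9.44 CPM in controls, so that the unnumbered control overlapped Nf2-KO (0.255 to 0.341 CPM), and its call was lost on the FPKM scale. Of gastric and intestinal lineage genes 13 of 27 were lower and 2 higher. Muc5ac, the mucin of gastric surface cells, was already low, at 3.9, 7 and 7.4 CPM, and fell to 0.118, 0.456 and 0.244 CPM (-4.47; -5.06 without Nf2-KO 2). Transcription factors of this list did not move alike. Hnf4a fell from 142, 105 and 100 to 44, 40.5 and 40.7 CPM (-1.47), and Onecut2 (-2.78) and Foxa3 (-2.49; -1.54 without the unnumbered control) fell too, whereas Gata4 (-0.01) and Pdx1 (-0.07) did not pass the test. The 2 that rose are both intestinal, the homeobox factor Cdx2 from 19.6, 15.3 and 12.7 to 48.1, 50.6 and 52.9 CPM (1.67, SE 0.15) and the cadherin Cdh17 from 17.5, 34 and 30.5 to 68.8, 75.6 and 69.2 CPM (1.38).

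Stem and progenitor markers had 11 of 27 lower and 6 higher, and those 6 were 3 with only the 2 groups fitted. Besides Olfm4 and Clu, the retinal dehydrogenase Aldh1a1 fell from 37.5, 31.1 and 29.4 to 1.99, 2.13 and 2.38 CPM (-3.91, SE 0.13), and Prom1, the gene of CD133, from 747, 737 and 673 to 158, 171 and 179 CPM (-2.09). Aqp5 rose from 2.16, 3.29 and 1.85 to 21.2, 20.8 and 25.4 CPM (3.20), Dclk1, a tuft cell kinase, from 12, 46.3 and 56.7 to 159, 159 and 139 CPM (2.00), and Ly6a, a marker of regenerating gut epithelium, rose (1.00). Markers of this list thus passed the test in both directions.

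**Figure D4:**
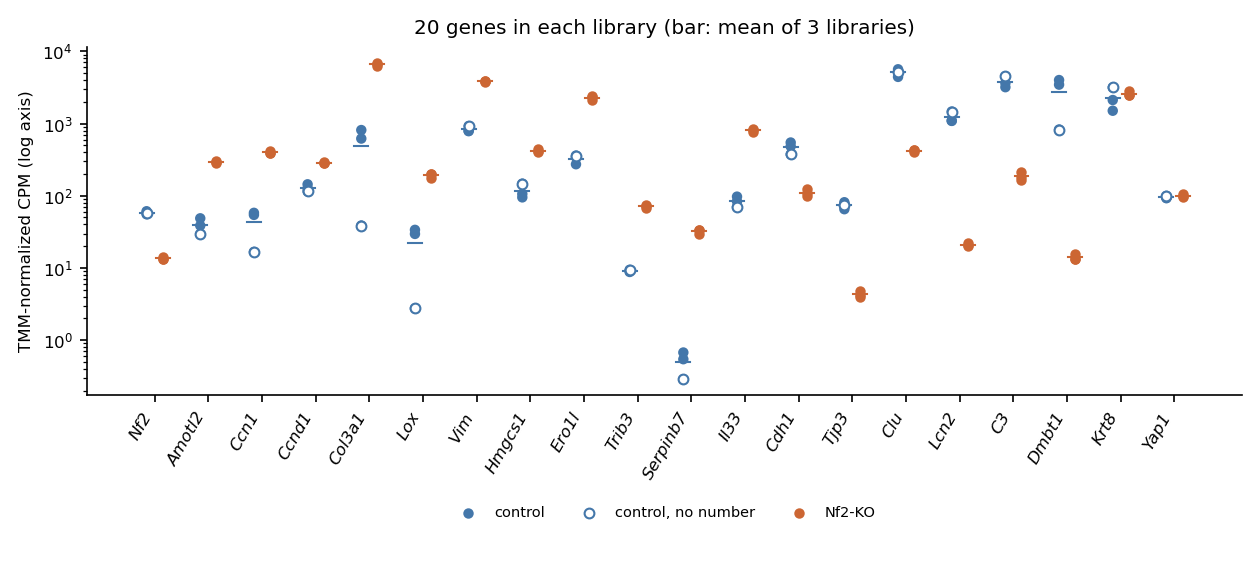
CPM (y axis, log scale) of 20 genes in each library: controls in blue, with the control without a number as an open circle, and Nf2-KO in orange; bars are means of 3 libraries. Nf2-KO libraries lie close together for each gene, whereas Col3a1, Lox and Dmbt1 spread widely among the controls, and Krt8 and Yap1 overlap or nearly so.

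In the list of EMT factors and mesenchymal genes 12 of 17 were higher and 1 lower (median 0.93), or 13 and 3 without the unnumbered control. Vim went from 923, 791 and 784 to 3848, 3765 and 3895 CPM (2.20, SE 0.13) and S100a4 from 101, 102 and 84.5 to 498, 546 and 608 CPM (2.53, SE 0.12). The EMT transcription factor Snai1 rose from 0.616, 1.55 and 2.18 to 8.11, 6.83 and 6.3 CPM (2.31), Prrx1 from 0.372, 4.08 and 6.01 to 28.8, 26.9 and 21.7 CPM (2.91; 3.53 without control 2), and Zeb1 and Zeb2 by 0.75 and 0.91. Fn1, the gene of fibronectin, did not, at 1288, 3997 and 4232 CPM against 3772, 2825 and 2489 CPM (-0.07, SE 0.36), and N-cadherin (Cdh2) rose by 0.45.

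Collagen genes included some of the largest rises, with 14 of 24 higher and 2 lower (median 1.13). Col3a1 was at 38.7, 812 and 619 CPM in controls and at 6233, 6566 and 6926 CPM in Nf2-KO (3.75, SE 0.79). Col1a1 went from 1.13, 12.1 and 20.2 to 413, 341 and 312 CPM (5.00, SE 0.84; 5.73 without control 2), Col12a1 from 4.13, 19.8 and 15.3 to 318, 313 and 294 CPM (4.56), and Col5a1 from 17, 75.2 and 69.1 to 545, 545 and 552 CPM (3.35). These 4 genes were each lowest in the unnumbered control, higher in controls 1 and 2 and highest in Nf2-KO. Col1a2 was at 0.0212, 0.163 and 0.496 CPM in controls, from 2 counts in the first of them, and at 133, 136 and 141 CPM in Nf2-KO. Col15a1, of the basement membrane zone, fell (-2.47), with 8.24, 93.2 and 93.5 CPM against 13.5, 10.6 and 11.1 CPM, so the unnumbered control was below Nf2-KO, and its call was lost with only the 2 groups fitted and on the FPKM scale. Col27a1 fell by 1.82. Without the unnumbered control 4 collagens were lower.

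Enzymes that build and cut matrix passed the test in both directions. Lox, which cross-links collagen, rose from 2.75, 29.6 and 33.7 to 203, 198 and 174 CPM (3.13), the lysyl hydroxylase Plod2 from 93.2, 74.4 and 68.1 to 427, 477 and 438 CPM (2.51) and the prolyl hydroxylases P4ha1 and P4ha2 by 2.26 and 2.29. Mmp2 (4.29; 3.70 without the unnumbered control), Mmp3 (3.33), the inhibitor Timp3 (3.16) and the plasminogen activator Plau (2.73) rose, and Mmp7, the matrilysin of glandular epithelium (-4.75), Adamts15 (-3.15), Mmp15 (-2.89) and Tmprss2 (-2.68) fell, giving 21 of 42 higher and 10 lower. Of 20 serpins 10 were higher, led by Serpinb7, Serpinf1 (5.02; 4.42 without the unnumbered control and 5.74 without control 1), Serpinb2 (3.46) and Serpinb1b (2.91), and 2 were lower, or 4 without the unnumbered control. Lamb3 (-2.94), Itga2 (-1.86) and Itgb4 (-1.60), of the epithelial anchoring complexes and collagen receptors, fell, while the laminin receptor Itga7 (2.52), the matrix glycoproteins Fbln1 (3.90), Fbln2 (2.14) and Thbs1 (2.94) rose, in all 16 of 36 higher and 10 lower. Of 37 actin-binding and SRF-dependent genes 14 were higher and 8 lower. The calponins Cnn2 (1.38) and Cnn3 (1.34) rose, Fhl1 (-2.84) and Myl9 (-2.43) fell, and the counts were 7 and 5 with only the 2 groups fitted, and 17 and 13 without the unnumbered control.

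**Figure D5:**
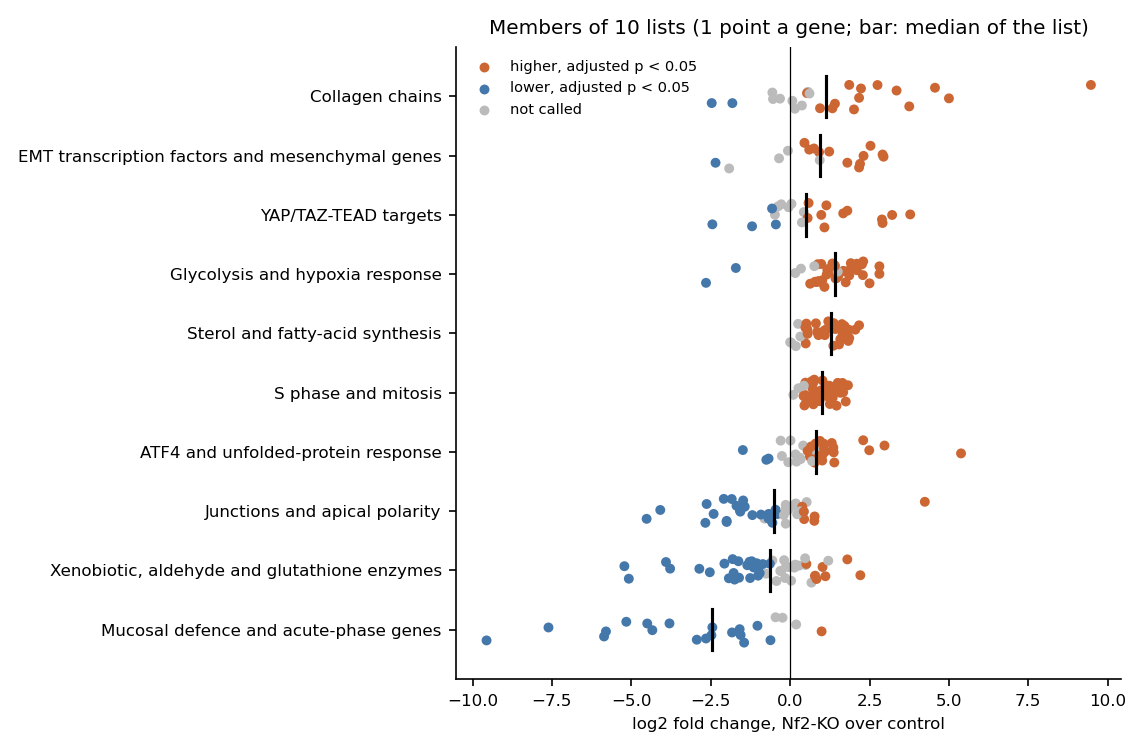
Log2 fold change of each tested member (x axis) for 10 lists (rows), coloured by call, with a bar at the median of the list. Collagen, sterol, glycolysis and S phase members lie mostly to the right of 0, and junction, xenobiotic and mucosal defence members mostly to the left.

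Of 44 genes of S phase and mitosis 41 were higher and none lower in edgeR, at an adjusted or an unadjusted p under 0.05, and in DESeq2, with a median of 1.00 and values between 0.10 and 1.82. Top2a went from 187, 160 and 144 to 430, 472 and 452 CPM (1.46, SE 0.10), Ccnb2 from 23.4, 15.2 and 12.5 to 57.6, 59.8 and 64 CPM (1.82) and the mitotic kinases Aurkb and Aurka by 1.75 and 1.67. The 3 not called, Tyms (0.10), E2f1 (0.26) and Foxm1 (0.43), were also positive. Without the unnumbered control 42 of the 44 were higher. Among G1 cyclins and CDK inhibitors 9 of 17 were higher and 1 lower. Ccnd1, at 115, 144 and 127 CPM against 283, 288 and 289 CPM (1.16), and Cdk4 (0.78, lost with only the 2 groups fitted) rose, but so did inhibitors that oppose them, Cdkn1c (1.83), Cdkn2d (1.64), Cdkn2b (1.23) and Cdkn2a (1.18), and without the unnumbered control 3 of the 17 were lower. In the BCL2 family 8 of 16 were lower and 1 higher. The proapoptotic gene Bmf fell from 217, 139 and 119 to 51.1, 51.8 and 53.4 CPM (-1.60), and the protective genes Bcl2l1 (-0.59), Bcl2 (-0.32) and Mcl1 (-0.32) were slightly lower. The calls of Bcl2 and Mcl1 were lost with only the 2 groups fitted in edgeR, where 4 members were lower and none higher, or 7 and 1 at an unadjusted p under 0.05, against 8 lower and 2 higher in DESeq2 and 9 and 2 without the unnumbered control. Of 25 p53 targets 8 were higher and 8 lower, with a median of 0.11, in a line whose Trp53 gene was engineered.

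Of 40 genes of glycolysis and the hypoxia response 34 were higher and 2 lower (median 1.40). Pgk1 rose from 1103, 753 and 584 to 3254, 3473 and 3731 CPM (4.29-fold, log2 SE 0.20), Aldoa from 1384, 1000 and 701 to 3598, 3525 and 4042 CPM (1.86), and the glucose transporter Slc2a1 from 140, 119 and 123 to 392, 404 and 412 CPM (1.66, SE 0.09). Ero1l, an oxidase of protein folding induced by hypoxia, had the largest gain among abundant members, from 360, 273 and 344 to 2312, 2402 and 2136 CPM (2.81, SE 0.15), beside Eno2 (2.81), Car9 (2.50) and Bnip3 (2.30). Hif1a itself was at 423, 385 and 384 against 421, 462 and 446 CPM (0.16), and Epas1, the gene of HIF-2 alpha, fell from 12.7, 57.5 and 79.3 to 11.2, 6.3 and 6.29 CPM (-2.65). The 47 genes of the respiratory chain had 2 higher, Ndufa6 and Atp5d, and none lower (median 0.12) in edgeR, at an adjusted or an unadjusted p under 0.05, and in DESeq2, but the unnumbered control was the highest of the 3 controls for these genes and without it 36 were higher, while with only the 2 groups fitted in edgeR none was, with none at an unadjusted p under 0.05. Atp5d was 0.37 in edgeR but 0.01 on log2 FPKM with either pseudocount. On that scale 1 of the 47 was higher, and with a replicate block 5 were. None was higher without filtering, or when any Nf2-KO library, control 1 or control 2 was left out.

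Sterol and fatty-acid synthesis had 30 of 36 genes higher and none lower (median 1.28) in edgeR, at an adjusted or an unadjusted p under 0.05, and in DESeq2. Hmgcs1, at the entry to the mevalonate pathway, rose from 147, 106 and 94.9 to 397, 447 and 416 CPM (1.86, SE 0.15), Sqle from 139, 99.2 and 103 to 404, 411 and 411 CPM (1.85), Lss from 87, 56.4 and 53.9 to 262, 274 and 278 CPM (2.05) and the desaturase Scd1 from 30.6, 69.8 and 75.6 to 289, 263 and 241 CPM (2.17). The regulator Srebf2 was flat (-0.00) and Srebf1 rose slightly (0.54, lost with only the 2 groups fitted), while Fasn (0.18) was not called. In the ATF4 and unfolded-protein list 23 of 38 were higher and 3 lower. Trib3 rose from 9.43, 8.8 and 9.07 to 66.9, 72.3 and 74.3 CPM (2.97, SE 0.12), Ddit3 from 47.8, 18.5 and 12.7 to 141, 140 and 162 CPM (2.49; 3.24 without the unnumbered control), Chac1 by 2.30, Atf4 by 1.39 and the chaperone Hspa5 by 1.36. Xbp1 (-0.75) and Herpud1 (-0.68) fell, and without the unnumbered control 28 were higher and 5 lower.

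Detoxifying enzymes were mostly lower where they passed the test, with 24 of 49 lower and 7 higher (median -0.64). Gsta3, a glutathione transferase, fell from 137, 79.9 and 63.3 to 2.09, 2.71 and 2.68 CPM (-5.22, SE 0.32), Sult1a1 from 30.7, 77.8 and 70.9 to 1.87, 1.65 and 1.79 CPM (-5.08) and Adh1 by 3.78. Hmox1, the haem oxygenase, rose instead, from 40.6, 28.3 and 28.1 to 149, 151 and 150 CPM (2.21), and 11 members were higher without the unnumbered control.

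Of 34 chemokines and cytokines 15 were lower and 9 higher. Tnf fell from 8.61, 7.19 and 5.75 to 0.494, 0.479 and 0.615 CPM (-3.76, SE 0.23), Csf3 from 62, 48 and 33.1 to 9.73, 10.3 and 10.6 CPM (-2.22), Il1rn, the interleukin 1 antagonist, from 539, 413 and 400 to 103, 100 and 93.1 CPM (-2.19), and Ccl20 by 2.76 (2.06 without the unnumbered control). Besides Il33, Il6 (2.31) and Il11 (2.25) rose from under 1 CPM. Among interferon-stimulated genes 18 of 43 were lower and 8 higher. Parp14 (-1.54), Oas1a (-1.48) and Ifih1 (-1.16) fell, and Isg20 (1.21) and Trim30a (1.22) rose, the higher members numbering 4 with only the 2 groups fitted. For antigen presentation 7 of 20 were lower and 5 higher. The class II chaperone Cd74 fell from 12.5, 7.09 and 6.23 to 1.25, 0.924 and 1.16 CPM (-2.96), the peptide loading genes Tapbp (-0.78) and Erap1 (-0.97) fell, and the class I gene H2-K1 (0.74) was higher, though with only the 2 groups fitted it was not called and 2 members were higher.

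Markers of cell types were checked beside these results. Epithelial markers were present in both groups, carried by keratins. The 7 measured summed to 3704 to 6467 CPM in controls and 4941 to 5483 CPM in Nf2-KO. Epcam and Cdh1 were lower. Cldn3 was higher (0.44), a call lost with only the 2 groups fitted, and without the unnumbered control 4 of the 7 were higher. Fibroblast markers moved with the mesenchymal and collagen genes, and their part in those results was not tested. The 5 measured summed to 35.2 to 119 CPM in controls and 656 to 757 CPM in Nf2-KO, with Col1a1, Col1a2, Pdgfra and Pdgfrb higher and Dcn (31.9, 73.6 and 76.9 against 33.9, 38.4 and 38.4 CPM) lower, a call lost with only the 2 groups fitted. In RNA from whole cultures, a change in the share of cells of a type and a change of RNA per cell cannot be told apart. Of the immune markers 2 were measured, summing to 5.67 to 8.73 CPM in controls and 14.3 to 15.1 CPM in Nf2-KO, and their part in the results was not tested. Ptprc, the gene of CD45, was at 0.149 to 0.572 CPM in controls and 0.209 to 0.251 CPM in Nf2-KO, and the macrophage marker Cd68 rose, from 5.52, 8.16 and 7.74 to 14.9, 14.1 and 14.4 CPM (1.02, adjusted p = 0.0091 in edgeR). Of the endothelial markers 2 were measured, summing to 0.735 to 1.53 CPM in controls and 1.05 to 1.22 CPM in Nf2-KO. Kdr was higher (1.28), a call lost with only the 2 groups fitted and when any Nf2-KO library or control 1 was left out. Pecam1 was lower (-1.62) and stayed under 1 CPM in all 6 libraries. Of gastric gland and surface markers 4 were measured, Muc5ac, Atp4a, Tff1 and Tff2, summing to 6.91 to 10.8 CPM in controls and 2.33 to 3.36 CPM in Nf2-KO, so these genes were low in both groups. They did not all fall, as 2 of the 4 were lower and Tff1 was positive (1.25) though not called. Atp4b, Gkn1, Gkn2, Muc6 and Pgc were not analysed here.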

How the data were processed

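RNA from 12 samples was sequenced by the authors with a stranded total RNA kit. Per the labels and methods, reads were trimmed with Trimmomatic, aligned to the mouse genome mm10 with HISAT2 and assembled and quantified against RefSeq with StringTie, and the authors deposited a read count and an FPKM value (fragments scaled by transcript length and library size) for each gene. The tables list 18926 genes, none with a count of 0 in any library, so genes silent in some library were not analysed here. TPM columns were not used.

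Counts were fitted with edgeR 4.0.16 in R 4.3.3 (TMM, filterByExpr, quasi-likelihood test) in 1 model over the 12 libraries in 4 groups of 3 (control, Nf2-KO and the libraries labelled Rasa1 KO and Rasa1 KO with Nf2 KO, which share the estimate of the spread), with the contrast Nf2-KO minus control and Benjamini-Hochberg adjustment over the 18053 genes tested. The file names of the last 2 groups give each the genotype that the labels give the other; each trio stays 1 group under either naming, so the fit is the same. Genes were called at an adjusted p under 0.05. The standard error is the log2 fold change divided by the square root of F. CPM values use TMM-normalized library sizes. Totals ran from 43818139 to 95340850 counts in these 6 libraries. The steps were tested on simulated data. Genes were named as Nf2 and Rasa1; the 12 largest rises and falls among called genes with more than 3 counts in each of the 6 libraries and no overlap, and the 8 largest with at least 30 CPM in the higher group; per list, up to 6 called members with the largest change and 4 uncalled members with the highest CPM; and the neighbours of Nf2. Members and lists were chosen with earlier results of these data known. Alternatives were DESeq2 1.42.0, RLE scaling, other filters, limma 3.58.1 on log2 FPKM with pseudocounts of 1 and 0.1, other call rules, a fit to only the 2 groups, a replicate block and leaving out each library. Control and Nf2-KO share 2 replicate numbers. The deviations of same-numbered libraries correlated at 0.174 and 0.0529. Promoters came from RefSeq by gene symbol or ID, for 12666 tested genes.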

Additional observations from a re-analysis of the deposited data

How the results depend on the processing

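Of 388 genes named by the rule 235 were called, none of these changed sign under 14 alternatives, and 24 lost the call under at least 1, 20 of them in the fit to only the 2 groups. A further 67 uncalled genes were called without the unnumbered control. The count of higher genes, 3710, was 2328 with only the 2 groups fitted, 1531 when a 2-fold change was also required, and 678 for a 3-fold change with unadjusted p under 0.05. The count of lower genes, 4011, was 2265 and 1377 under the last of these rules. Leaving out 1 library gave 2903 to 5566 higher and 2928 to 5631 lower genes, the highest of both without the unnumbered control. The other settings stayed within 1.5 times, among them DESeq2 with 4040 and 4252. A replicate block gave 3771 higher and 3660 lower genes. Control and Nf2-KO share only 2 replicate numbers, which do not mark a shared culture, so the block is no pairing by design. The causes of these shifts were not tested. Control 2 had the lowest depth of the 6 libraries, and what this meant for genes with few counts was not tested.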

Other observations

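By chromosome, 30.1% of the 704 genes tested on chromosome 13 were higher and 15.9% lower, against 15.8% and 27.3% on chromosome 19. Neither chromosome was set in advance, and chromosome 17 had 15.4% higher and 24.1% lower. The median log2 fold change was 0.10 on chromosome 13 and -0.18 on chromosome 19. Among genes with a mean of at least 1 CPM these medians were 0.19 and -0.05. Of 30 mitochondrial genes 9 were lower, with a median log2 fold change of -0.56. By gene type, 137 of 2202 long noncoding RNA genes were higher and 516 lower (median -0.71), 280 of 1293 pseudogenes were higher and 89 lower (0.24), and 3234 of 13875 protein-coding genes were higher and 3345 lower (-0.03). Spink4, a secreted peptide of the gut, chosen after its values were seen, was the 10th most abundant protein-coding gene of controls at 1235 FPKM and the 899th of Nf2-KO at 62.4 FPKM. Bsg, the gene of basigin, moved the other way, from 943 to 3215 FPKM.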
